A study of Mus musculus with 42 samples.

Results

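Sirtuins are deacylases that remove acyl groups from proteins and use up NAD in doing so, which ties their activity to the metabolic state of the cell. The mouse genome encodes 7 of them, Sirt1 to Sirt7, and all 7 were measured here. Members were taken as every probe, other than control spots, that the array design names Sirt1 to Sirt7, which gave 11 probes for 7 genes out of 41174 probes and 27597 genes. Sirt2 had 3 probes, Sirt1 and Sirt7 had 2 each, and Sirt3, Sirt4, Sirt5 and Sirt6 had 1 each. All 7 genes passed the filter on dim probes in liver, muscle and fat.

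The arrays carried RNA of female C57BL/6 mice that were either wild-type (Wt) or Akt1+/-, that is, heterozygous for a constitutive deletion of Akt1, so that every cell type lacked 1 copy from conception. Akt1 encodes a kinase downstream of the insulin and IGF-1 receptors. Liver, quadriceps (skeletal) muscle and visceral fat were each profiled at 8 weeks with 3 arrays per genotype and at 35 weeks with 4 arrays per genotype, 42 arrays in 12 groups. The 35 weeks are those of the sample labels, and the methods of the study give a slightly higher age and a smaller number of samples per group than the arrays used here at 35 weeks. The labels name no treatment for any group and do not say whether replicates came from separate animals, so p-values measure the spread between these samples only.

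In mammals the sirtuins sit in different compartments: Sirt1, Sirt6 and Sirt7 are mainly nuclear, Sirt2 is mainly cytosolic, and Sirt3, Sirt4 and Sirt5 are mitochondrial. Sirt1 deacetylates transcription regulators such as PGC-1alpha, FOXO proteins and p53. Sirt3 is the main deacetylase of the mitochondrial matrix, Sirt4 restrains glutamate dehydrogenase, and Sirt5 removes succinyl, malonyl and glutaryl groups. The sirtuins were first linked to ageing through yeast Sir2, and lowered insulin and IGF-1 signalling is another route to longer life in model organisms. The question asked here was how the transcript of each sirtuin differed between tissues, between ages and between genotypes.

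The promoters of Sirt1, Sirt3 and Sirt4 are shown. These 3 were chosen because they passed, in some tissue, the age test over both genotypes or the genotype test over both ages. A further reason was that Sirt3 and Sirt4 moved together within tissues (r = 0.77 over 12 deviations from tissue means) while Sirt1 and Sirt4 did not (r = −0.20). Each run is the 250 bases before the RefSeq start of the gene in build GRCm38.p6, read 5′ to 3′ on the strand of the gene. All 3 genes lie on the minus strand, at chr10:63339036-63339285 for Sirt1, chr7:140881870-140882119 for Sirt3 and chr5:115484298-115484547 for Sirt4. Capitals mark matches, on either strand, to a GC box (GGGCGG), an E-box (CACGTG) or the letters of the CCAAT box.
Sirt1: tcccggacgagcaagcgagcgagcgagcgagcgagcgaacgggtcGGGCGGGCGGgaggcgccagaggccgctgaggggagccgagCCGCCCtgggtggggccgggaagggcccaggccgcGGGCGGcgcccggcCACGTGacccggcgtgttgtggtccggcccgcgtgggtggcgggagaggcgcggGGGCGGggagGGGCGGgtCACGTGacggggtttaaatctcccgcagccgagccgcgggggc
Sirt3: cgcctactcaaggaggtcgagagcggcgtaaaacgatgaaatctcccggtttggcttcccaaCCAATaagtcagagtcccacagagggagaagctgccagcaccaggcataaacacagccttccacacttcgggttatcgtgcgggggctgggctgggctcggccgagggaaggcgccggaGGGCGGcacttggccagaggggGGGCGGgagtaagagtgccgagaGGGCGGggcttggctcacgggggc
Sirt4: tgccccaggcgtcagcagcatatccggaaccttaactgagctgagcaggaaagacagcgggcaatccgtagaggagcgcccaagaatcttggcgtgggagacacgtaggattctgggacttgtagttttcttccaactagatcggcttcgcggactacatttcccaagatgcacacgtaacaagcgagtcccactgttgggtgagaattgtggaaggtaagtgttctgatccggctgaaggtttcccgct
The Sirt1 run held 6 GC boxes, 2 of them overlapping, and 2 E-boxes, with 39 CG dinucleotides. The Sirt3 run held 3 GC boxes and 1 CCAAT box, with 18 CG dinucleotides, and the window before a second RefSeq start of Sirt3 (chr7:140882310-140882559) held none of the 3 motifs. The Sirt4 run held none of them and 14 CG dinucleotides. Among 32851 promoter windows of the same length, 32.7% held a GC box, 33.8% a CCAAT box and 6.02% an E-box, and the median window had 6 CG dinucleotides. Of the sirtuins not printed, Sirt2 held 1 GC box and 2 CCAAT boxes, Sirt5 held 1 of each, Sirt7 held 1 GC box, and 1 of 2 Sirt6 starts held 1 GC box. A match is a description of the letters and says nothing about binding in these tissues.

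Levels are given as log2 of the processed probe intensity minus the 75th percentile of the same array, so that 0 is the 75th percentile and a difference of 1 is a 2-fold difference. That percentile lay between 282 and 840 intensity units over the 42 arrays, and 57.2% to 69.2% of probes were well above background. In fat the percentile was higher (497 to 840) than in liver (282 to 447) or muscle (310 to 468). Precision is limited by how few arrays each group had. The Sirt6 probe was dim, at 9.79 to 32.2 intensity units. Levels of different probes are not comparable, because probes bind with different strength, so no sirtuin is ranked against another below.

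The genotype labels were checked with Akt1 itself. In every tissue and at both ages, each Akt1+/- array read lower than each Wt array. The log2 difference from Wt was −0.67 for liver (37.2% lower, adjusted p = 0.0023, limma), −0.58 in muscle (33.3% lower, adjusted p = 0.076) and −0.56 in fat (31.9% lower, adjusted p = 0.0043). Defining markers were read as a log2 sum, that is, the log2 of their summed levels. For hepatocytes, muscle fibres and adipocytes this sum was highest in the tissue of the label. The log2 sum of 5 hepatocyte markers was 10.2 to 10.8 in liver and at most 6.94 elsewhere. In muscle it ran from −0.28 to 2.46, except on Akt1+/- 8 weeks replicate 3, which stood apart at 5.29; Sirt1 and Sirt4 remained called for age in muscle without that array (0.51 and −0.23, adjusted p = 0.00092 and 0.0090). Fat minus liver was −0.96 for the hepatocyte marker Cyp2e1, against −9.13 to −15.0 for Alb, Ttr, Apoa1 and Apob. The log2 sum of 6 muscle fibre markers was 11.8 to 12.3 in muscle, and that of 6 adipocyte markers was 10.5 to 11 in fat. Visceral fat also carried mesothelial markers, with a log2 sum of 4.06 to 5.25.

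The largest differences among the sirtuins lay between tissues. Sirt3, the mitochondrial deacetylase, was highest in liver, lower in muscle and lowest in fat, and Sirt7, which acts at ribosomal DNA, was highest in liver, intermediate in fat and lowest in muscle. Sirt2 was highest in muscle, and Sirt5 was low in fat. Sirt1, Sirt4 and Sirt6 differed less, with muscle on top in the scaled levels. With 17045 of 19855 genes called between muscle and liver, or 85.8%, a difference between these tissues was the rule among all genes.

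Sirt3 ranged from 6.07 to 6.67 in liver (median 6.44, n = 14 arrays), from 3.76 to 4.63 in muscle (median 4.10) and from 2.73 to 3.60 in fat (median 3.16). None of the 3 ranges overlapped. Muscle was 4.75-fold below liver (log2 difference −2.25 ± 0.07 SE, adjusted p = 1.8e-25), fat was 9.25-fold below liver (−3.21 ± 0.07, adjusted p = 8.7e-30) and fat was 1.95-fold below muscle (−0.96 ± 0.07, adjusted p = 6.4e-15). After normexp background correction and quantile normalization fat was 5.54-fold below liver (−2.47).

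Sirt7 ranged from 3.68 to 4.27 in liver (median 3.93), from 2.85 to 3.31 in fat (median 3.09) and from 1.72 to 1.99 in muscle (median 1.80). These ranges did not overlap either, but the order differed from that of Sirt3, with fat above muscle. Muscle was 4.28-fold below liver (−2.10 ± 0.05, adjusted p = 2.0e-29) and fat was 2.38-fold above muscle (1.25 ± 0.05, adjusted p = 1.0e-22). Fat was 1.80-fold below liver (−0.85 ± 0.05, adjusted p = 6.7e-18). The second Sirt7 probe, which starts 20 bases away, gave −2.01, 1.22 and −0.79 for the same 3 differences.

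Sirt2, a tubulin deacetylase, ranged from 3.44 to 3.71 in muscle (median 3.61), from 2.30 to 2.84 in liver (median 2.66) and from 2.25 to 2.66 in fat (median 2.51). Muscle stood above both other tissues without overlap, by 1.94-fold over liver (0.96 ± 0.04, adjusted p = 2.6e-21) and by 2.13-fold over fat (−1.09 ± 0.04 for fat minus muscle, adjusted p = 7.3e-23). Liver and fat overlapped and differed by −0.14 ± 0.04 (fat minus liver, adjusted p = 0.0022), a direction that turned to 0.23 after normexp background correction and quantile normalization.

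Sirt5 ranged from 1.44 to 2.41 in muscle (median 1.72), from 0.90 to 1.73 in liver (median 1.36) and from −0.32 to 0.53 in fat (median 0.07). Fat lay below both other tissues without overlap, 2.44-fold below liver (−1.29 ± 0.10, adjusted p = 3.1e-14) and 3.05-fold below muscle (−1.61 ± 0.10, adjusted p = 7.0e-17). Liver and muscle overlapped widely and differed by 0.32 ± 0.10 (adjusted p = 0.0028).

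Sirt4 ranged from 1.38 to 1.82 in muscle, from 0.90 to 1.62 in liver and from 0.80 to 1.34 in fat. It was 1.35-fold higher in muscle than in liver (0.43 ± 0.04, adjusted p = 7.2e-12) and 1.43-fold lower in fat than in muscle (−0.51 ± 0.04, adjusted p = 8.7e-14), the latter without overlap. Fat and liver overlapped and the difference missed the threshold (−0.08, 95% interval −0.16 to −0.002, adjusted p = 0.054).

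Sirt1 ranged from 0.44 to 1.13 in muscle (median 0.80), from 0.00 to 0.71 in liver (median 0.38) and from −0.11 to 0.66 in fat (median 0.37). All 3 ranges overlapped. Muscle was 1.29-fold above liver (0.37 ± 0.06, adjusted p = 2.9e-07) and 1.30-fold above fat (fat minus muscle −0.38 ± 0.06, adjusted p = 1.7e-07), while fat and liver differed by −0.01 (95% interval −0.12 to 0.10, adjusted p = 0.87). These values are those of the brightest probe. The second Sirt1 probe averaged −0.31 in muscle, −0.68 in fat and −0.87 in liver, with overlapping ranges, so that its mean was higher in fat than in liver.

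Sirt6, a nuclear sirtuin of chromatin and DNA repair, ranged from −4.26 to −3.37 in muscle, from −5.13 to −3.71 in liver and from −5.09 to −4.24 in fat. Its probe was well above background on all 14 muscle and all 14 fat arrays but on 10 of 14 liver arrays. The array design gives this probe coordinates of 15 bases, where most other sirtuin probes have 60 or 61. Whether it reads Sirt6 alone was not tested. Muscle was 1.57-fold above liver (0.65 ± 0.09, adjusted p = 1.8e-08) and 1.71-fold above fat (fat minus muscle −0.78 ± 0.09, adjusted p = 4.3e-10), and fat and liver differed by −0.12 (95% interval −0.30 to 0.05, adjusted p = 0.17). With normexp and quantile normalization the first of these log2 differences shrank to 0.17 and the second to −0.22, both still called. Before scaling, the probe read 22.2 to 30.8 intensity units in muscle, 20.1 to 32.2 in fat and 9.79 to 28.2 in liver. Muscle and fat thus overlapped before the array percentile, which was higher in fat, was subtracted. The part of that scaling in the Sirt6 difference was not tested.

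In all, read on the brightest probe of each gene, the 7 sirtuins were called 7 times of 7 between muscle and liver. Between fat and liver 4 of 7 were called, beside 86.3% of all genes, and between fat and muscle 7 of 7, beside 87.7%. Without overlap, Sirt2 was higher in muscle than in liver (25% of genes were higher without overlap), Sirt3 and Sirt7 were lower (22.7%). Sirt3, Sirt5 and Sirt7 were lower in fat than in liver (21.5%). Against muscle, Sirt2, Sirt3, Sirt4 and Sirt5 were lower in fat (24.3%) and Sirt7 was higher (22.9%). These shares lie beside counts of 1 to 4 of 7 members. In a bulk tissue, fewer cells of a type and less RNA per cell cannot be told apart.

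**Figure D1:**
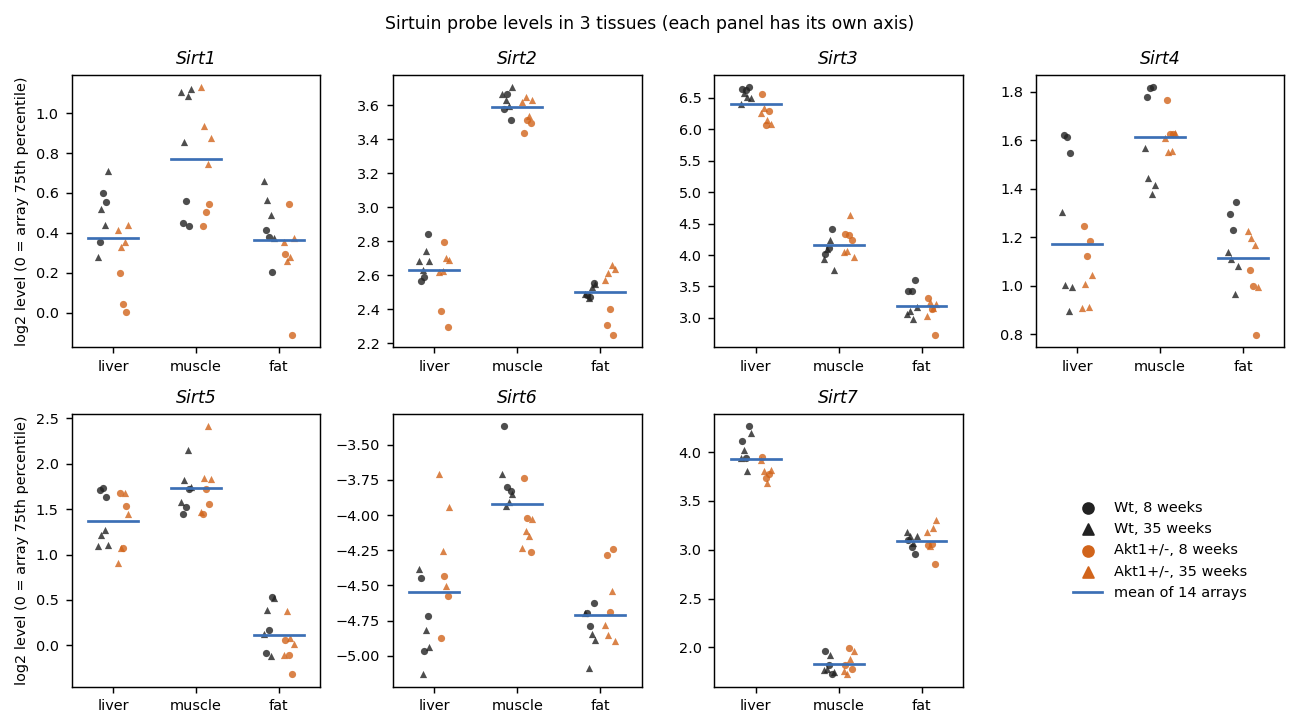
Log2 levels of the 7 sirtuins in liver, muscle and fat, relative to the 75th percentile of each array; each point is 1 of the 14 arrays of a tissue and the line is the mean. Sirt3 falls from 6.07 to 6.67 in liver to 2.73 to 3.60 in fat, Sirt7 is lowest in muscle at 1.72 to 1.99, and Sirt2 is highest in muscle at 3.44 to 3.71.

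Arrays of 1 genotype scanned on the same day gave the same order for the large differences. Among Akt1+/- arrays, fat was below liver on scan day 1 (3 fat and 2 liver arrays of 8 weeks) by −3.36 for Sirt3, −1.72 for Sirt5 and −0.88 for Sirt7, and on scan day 4 (4 and 4 arrays of 35 weeks) by −3.03, −1.18 and −0.62. Among Wt arrays of scan day 5 (4 and 4), fat minus muscle was −1.14 for Sirt2, −0.93 for Sirt3, −1.59 for Sirt5 and 1.33 for Sirt7. Sirt4 did not keep 1 sign between fat and liver, with −0.26 on scan day 1 and 0.18 on scan day 4 among Akt1+/- arrays, where age and scan day cannot be told apart. Among Wt arrays of scan day 1 (1 fat and 3 liver arrays) it was −0.25.

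Between 8 and 35 weeks, Sirt1 rose in muscle and Sirt4 fell in liver and in muscle. In fat no sirtuin passed the test over both genotypes. Sirt2, Sirt3, Sirt5, Sirt6 and Sirt7 passed that test in no tissue. Of all genes tested, 35% were called for age in liver (6142 of 17557), 30.9% in muscle (5295 of 17133) and 19.1% in fat (3505 of 18358), beside 1 of 7, 2 of 7 and 0 of 7 sirtuins. Genes lower with age were 14.7% in liver and 14.5% in muscle, and 16.5% were higher in muscle. The median difference over the 7 sirtuins was −0.07 for liver, −0.03 for muscle and 0.12 for fat, beside 0.02, 0.005 and 0.01 over all genes.

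In muscle of Wt mice Sirt1 stood at 0.45, 0.56 and 0.44 at 8 weeks and at 1.11, 0.86, 1.09 and 1.12 at 35 weeks. In Akt1+/- muscle it stood at 0.44, 0.50 and 0.55 at 8 weeks and at 1.13, 0.93, 0.74 and 0.88 at 35 weeks. All 8 arrays of 35 weeks lay above all 6 arrays of 8 weeks, which 5.42% of the genes did in this direction. Sirt1 was 1.41-fold higher at 35 weeks (0.49 ± 0.07, adjusted p = 0.00033), by 0.56 ± 0.10 in Wt (adjusted p = 0.0035; 16.7% of genes were called) and 0.43 ± 0.10 in Akt1+/- (adjusted p = 0.014; 14.7%). The difference between genotypes did not pass (−0.13 ± 0.14, adjusted p = 0.83; 0% of genes did, with 1481 at an unadjusted p under 0.05). In liver Sirt1 changed by 0.15 (adjusted p = 0.16) and in fat by 0.13 (adjusted p = 0.36).

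Sirt4 in liver stood at 1.62, 1.62 and 1.55 in Wt at 8 weeks and at 1.30, 1.0, 0.90 and 1.0 in Wt at 35 weeks. In Akt1+/- liver it stood at 1.25, 1.12 and 1.19 at 8 weeks and at 0.91, 1.01, 0.91 and 1.05 at 35 weeks. Within each genotype every array of 35 weeks lay below every array of 8 weeks (19.3% of genes in Wt and 8.54% in Akt1+/- did), and the Wt arrays of 8 weeks stood above all others. Sirt4 was 1.30-fold lower at 35 weeks (−0.38 ± 0.07, adjusted p = 0.0015). The change was −0.55 ± 0.10 in Wt (adjusted p = 0.0031; 22.4% of genes were called) and −0.22 ± 0.10 in Akt1+/- (adjusted p = 0.16; 16.8%). The difference between these did not pass (0.33 ± 0.14, adjusted p = 0.32; 0.575%).

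The same gene in muscle stood at 1.78, 1.81 and 1.82 in Wt at 8 weeks and at 1.57, 1.45, 1.38 and 1.42 at 35 weeks. In Akt1+/- muscle it stood at 1.77, 1.63 and 1.63 and then at 1.61, 1.55, 1.56 and 1.63. The Wt arrays separated by age (19.7% of genes were lower without overlap), while the Akt1+/- arrays overlapped. Sirt4 was 1.16-fold lower at 35 weeks (−0.22 ± 0.05, adjusted p = 0.0058), by −0.35 ± 0.07 in Wt (adjusted p = 0.0061) and −0.09 ± 0.07 in Akt1+/- (adjusted p = 0.44), with no called difference between genotypes (0.27 ± 0.10, adjusted p = 0.48). In fat the change was −0.01 (95% interval −0.15 to 0.13, adjusted p = 0.92).

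**Figure D2:**
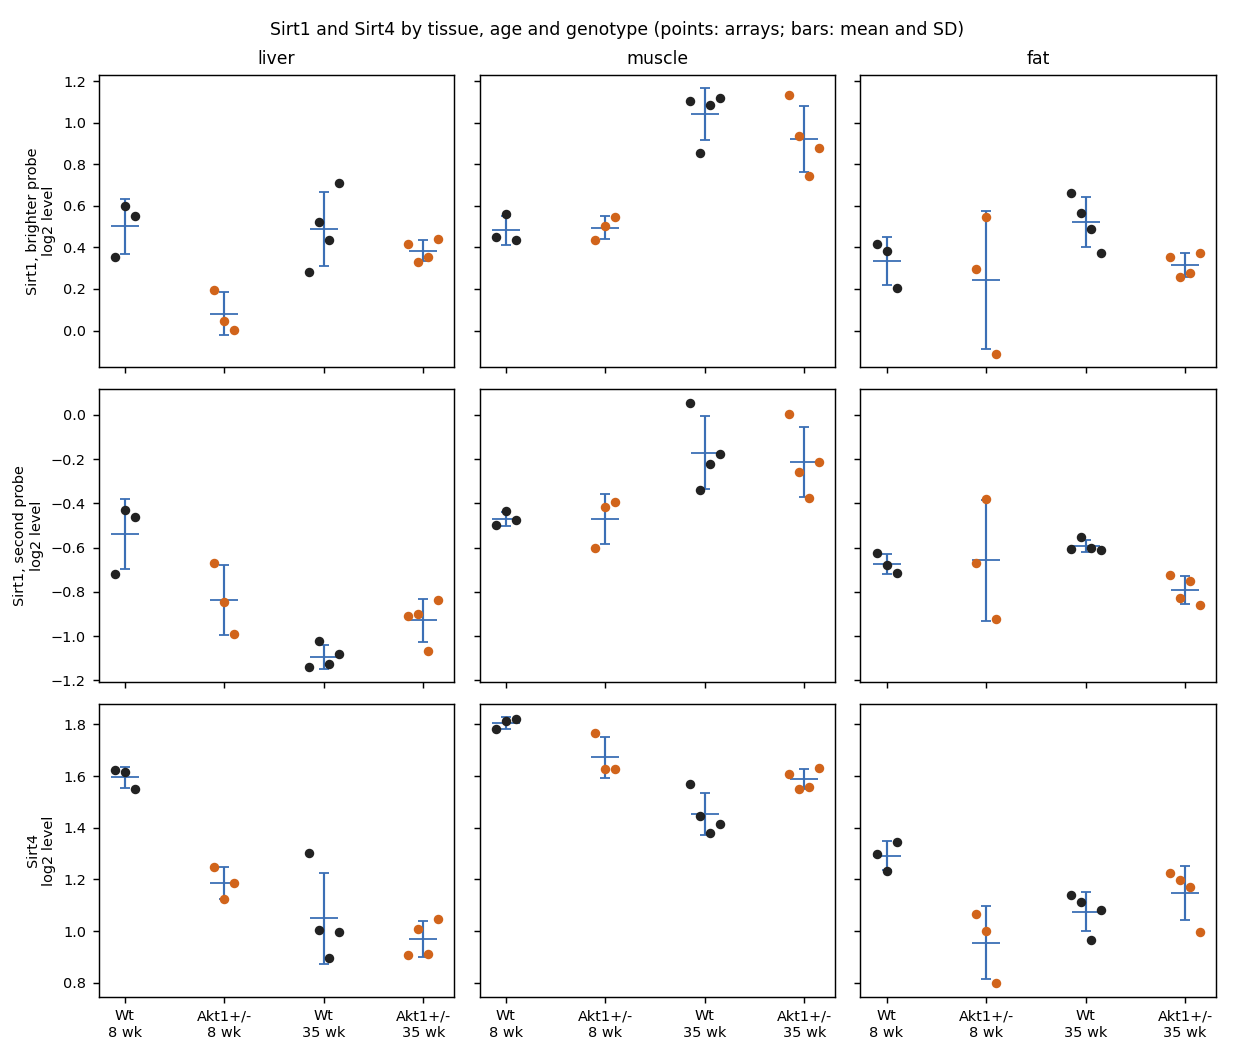
Log2 levels of Sirt1 (brighter probe on top, second probe in the middle) and Sirt4 (bottom) at 8 and 35 weeks in each tissue, relative to the 75th percentile of each array; points are arrays by genotype and bars are group means with SD. Sirt1 in muscle separates by age, from at most 0.56 at 8 weeks to at least 0.74 at 35 weeks, and Sirt4 in Wt liver drops from at least 1.55 to at most 1.30.

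In fat the 1 sirtuin called for age within a genotype was Sirt2 in Akt1+/- mice. Sirt2 in Akt1+/- fat stood at 2.31, 2.40 and 2.25 at 8 weeks and at 2.57, 2.62, 2.66 and 2.64 at 35 weeks, a rise of 0.30 ± 0.07 (adjusted p = 0.024) in a contrast where 9.48% of genes were called and 12.5% were higher without overlap. In Wt fat it stood at 2.48, 2.48 and 2.56 and then at 2.49, 2.46, 2.53 and 2.55, a difference of 0.004 (adjusted p = 0.98). The Akt1+/- arrays separated by age and the Wt arrays overlapped, but the difference between genotypes did not pass (0.30 ± 0.10, adjusted p = 0.14; 1.5% of genes did). Of the other 2 Sirt2 probes, in the fit over all probes, one also rose in Akt1+/- fat (0.30, adjusted p = 0.037) and the other gave 0.05 there (adjusted p = 0.77) and fell in Wt fat (−0.29, adjusted p = 0.035).

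Sirt3 in Wt fat stood at 3.43, 3.43 and 3.60 at 8 weeks and at 3.06, 3.11, 2.99 and 3.17 at 35 weeks, without overlap (14.8% of genes were lower without overlap). The difference was −0.41 ± 0.13 and missed the threshold (adjusted p = 0.052; 13.4% of genes passed). In Akt1+/- fat it was 0.10 (adjusted p = 0.65). Over both genotypes Sirt2 (0.15, adjusted p = 0.054), Sirt6 (−0.27, adjusted p = 0.064) and Sirt7 (0.15, adjusted p = 0.11) were the 3 sirtuins with an unadjusted limma p under 0.05 in fat, and a two-way test of the kind named in the methods called 1 sirtuin there after Benjamini-Hochberg adjustment. Fat arrays also carried muscle fibre markers, with a log2 sum over 6 of 4.88 to 6.56 in Wt at 8 weeks and 4.63 to 5.75 at 35 weeks, and of 3.87 to 5.24 and 4.33 to 6.35 in Akt1+/-. Their part in the differences in fat was not tested.

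Sirt5 in Wt liver stood at 1.71, 1.73 and 1.63 at 8 weeks and at 1.10, 1.21, 1.27 and 1.11 at 35 weeks. The ages did not overlap in Wt (19.3% of genes were lower without overlap, Sirt3 and Sirt4 among them), but Akt1+/- liver ran from 1.07 to 1.67 at 8 weeks and from 0.90 to 1.68 at 35 weeks. The 1.07 was that of replicate 2, which was scanned on day 2, unlike all other liver arrays of 8 weeks. Sirt5 missed the threshold in liver (−0.33 ± 0.13, adjusted p = 0.058) and in muscle (0.29 ± 0.14, adjusted p = 0.12).

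The age effect itself differed between tissues for 3 sirtuins. For Sirt1 it was 0.35 ± 0.11 higher in muscle than in liver (adjusted p = 0.028; 18.6% of genes were called) and 0.36 ± 0.11 lower in fat than in muscle, a log2 difference of −0.36 (adjusted p = 0.025; 16.3%). For Sirt4 it was 0.37 ± 0.08 higher in fat than in liver (adjusted p = 0.0014; 16.1%), and for Sirt5 0.62 ± 0.19 higher in muscle than in liver (adjusted p = 0.022). Comparisons that share a tissue share its arrays and are not independent of each other.

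These age differences carry limits. No scan day held both ages of a tissue, so that age and scan day cannot be told apart within a tissue, and with scan day as a random block the differences of Sirt1 (adjusted p = 0.25 and 0.13) and of Sirt5 (adjusted p = 0.35) between tissues were lost. With slide as a random block the same 3 were lost, at adjusted p of 0.060, 0.058 and 0.052. The Sirt1 difference between muscle and liver was also lost without liver Wt 8 weeks replicate 2 (0.32, adjusted p = 0.055) or liver Akt1+/- 8 weeks replicate 1 (0.32, adjusted p = 0.058), and that between fat and muscle without fat Akt1+/- 8 weeks replicate 2 (−0.29, adjusted p = 0.065).

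Markers of other cells moved with age in the same arrays. Of all genes, 16.5% were higher and 14.5% lower with age in muscle, and 20.2% were higher in liver. In muscle, 3 of 4 slow-fibre markers were higher at 35 weeks (Tnni1, Myh7, Tnnt1). The log2 sum of the 4 ran from 5.84 to 9.04 in Wt and 8.83 to 9.5 in Akt1+/- at 8 weeks, against 9.43 to 9.84 and 9.36 to 9.69 at 35 weeks. Of 6 adipocyte markers 3 were higher (Lep, Plin1, Cidec), with sums of 7.22 to 7.49 and 7.53 to 8.27 against 7.71 to 8.03 and 7.58 to 8.38, and both red cell markers measured were lower. Of 8 oocyte and ovary markers, 3 passed the filter in muscle, and Inha among them was lower at 35 weeks (−0.92, adjusted p = 0.00034). Inha read higher in muscle than in liver (4.63) or fat (−1.18 for fat minus muscle), so it is no specific sign of ovary here. In liver 4 of 6 macrophage and leukocyte markers were higher (Lyz2, Cd3e, Cd68, Ptprc), with sums of 5.32 to 5.78 in Wt and 6.03 to 6.37 in Akt1+/- at 8 weeks against 6.35 to 6.67 and 6.14 to 6.87 at 35 weeks. Their part in the Sirt1 and Sirt4 differences was not tested.

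**Figure D3:**
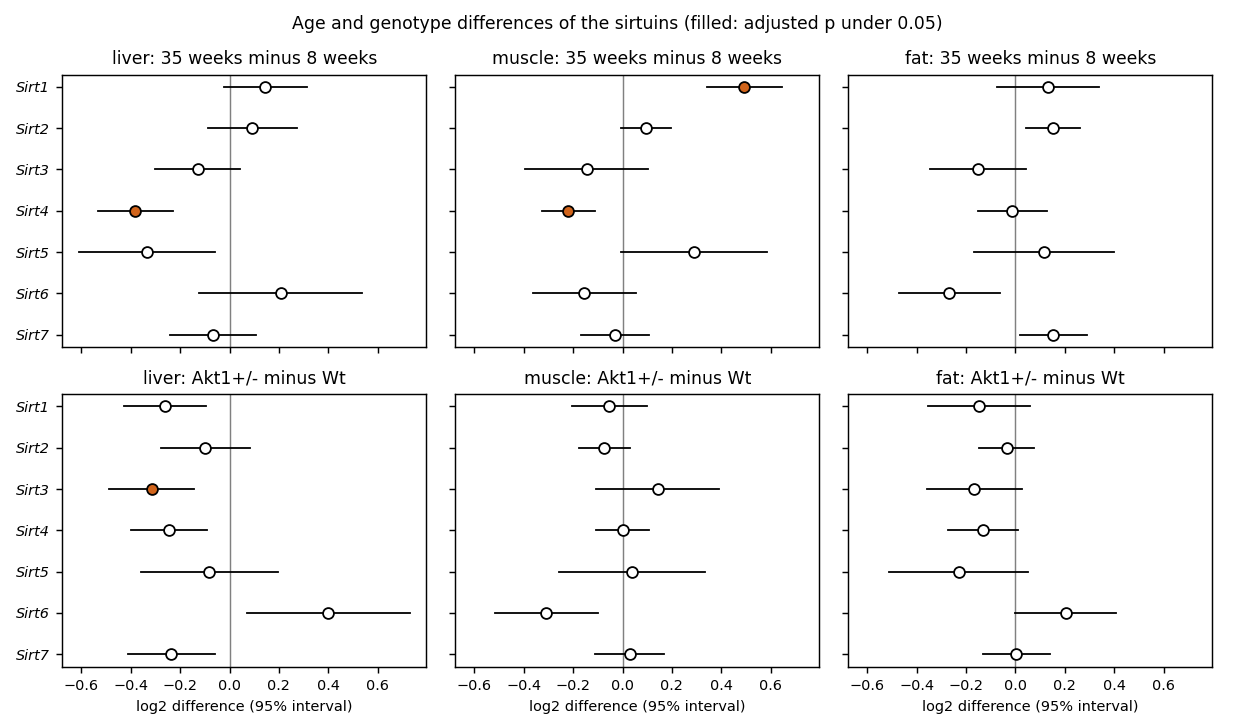
Differences of the 7 sirtuins with age (35 minus 8 weeks) and with genotype (Akt1+/- minus Wt) in each tissue, on the log2 scale; points are limma estimates, bars their 95% intervals, and filled points passed an adjusted p of 0.05. The filled points are Sirt1 in muscle (0.49), Sirt4 in liver (−0.38) and muscle (−0.22) for age, and Sirt3 in liver (−0.32) for genotype.

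Probes of the same gene did not always move alike with age. The second Sirt1 probe lies 17506 bases from the brightest one, nearer the 3′ end of the gene on mm8 chromosome 10. In liver it ran from −0.99 to −0.43 at 8 weeks and from −1.14 to −0.83 at 35 weeks, a difference of −0.32 (adjusted p = 0.0061 in the limma fit over all probes), where the brightest probe gave 0.15. In muscle both probes rose, by 0.28 (adjusted p = 0.017) and 0.49, and on each probe all arrays of 35 weeks lay above all arrays of 8 weeks.

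The changes with age of the 2 Sirt1 probes differed by −0.47 for liver, −0.21 for muscle and −0.16 for fat, with exact permutation p = 0.00033, 0.00067 and 0.0077 (two-sided, over 3003 arrangements of the age labels, the first being the smallest p possible; 0.0020, 0.0020 and 0.010 after Benjamini-Hochberg adjustment over 12 such tests). For Sirt2 the brightest probe and one starting 37 bases away differed in muscle (0.10 against −0.14, exact permutation test, adjusted p = 0.0020) and in liver (0.09 against −0.04, adjusted p = 0.0040). In fat they did not differ past the threshold (0.15 against 0.21, adjusted p = 0.11). The other Sirt2 probe, whose coordinates span 1626 bases, gave −0.12 in fat (adjusted p = 0.0020 against the brightest) and −0.19 in liver (adjusted p = 0.0032). In muscle it gave −0.16 (adjusted p = 0.0040) and lacked 1 array, where its spot was an outlier. The 2 Sirt7 probes differed in muscle (−0.03 against −0.20, adjusted p = 0.0045) and not past the threshold in liver or fat. Sirt4 had 1 probe, so that its changes had no second probe to compare.

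The comparison of genotypes asks how far loss of 1 Akt1 copy went with the sirtuins. Sirt3 was lower in Akt1+/- liver, and no other sirtuin passed the test for genotype in any tissue. In liver 6.16% of genes were called (1082 of 17557; 2.49% lower), in fat 0.774% (142 of 18358) and in muscle 0% (0 of 17133, limma, with 3160 genes at an unadjusted p under 0.05). In liver 6 of 7 sirtuins had lower estimates in Akt1+/- on their brightest probe, with a median of −0.24 beside 0.01 over all genes. The median was 0.001 in muscle and −0.13 in fat, beside −0.01 over all genes in both.

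Sirt3 in liver stood at 6.64, 6.62 and 6.67 in Wt and at 6.56, 6.07 and 6.28 in Akt1+/- at 8 weeks. At 35 weeks it stood at 6.40, 6.57, 6.51 and 6.49 in Wt and at 6.25, 6.33, 6.14 and 6.07 in Akt1+/-. At each age every Akt1+/- array lay below every Wt array, as for 14.2% of genes at 8 weeks and 3.61% at 35 weeks in this direction. Sirt3 was 1.24-fold lower in Akt1+/- (−0.32 ± 0.08, adjusted p = 0.039), with −0.34 at 8 weeks (adjusted p = 0.14; 2.16% of genes were called) and −0.29 at 35 weeks (adjusted p = 0.16; 3.49%). The lowest array, Akt1+/- 8 weeks replicate 2 at 6.07, was scanned on day 2, and all other liver arrays of 8 weeks on day 1. On scan day 1 the 2 Akt1+/- arrays averaged 6.42 and the 3 Wt arrays 6.64.

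The call for Sirt3 rested on a narrow margin. It was lost in 11 of 14 fits that left out 1 array (adjusted p of 0.059 to 0.083), and it remained without Akt1+/- 8 weeks replicate 1 (−0.38, adjusted p = 0.018), Wt 35 weeks replicate 1 (−0.33, adjusted p = 0.039) or Akt1+/- 35 weeks replicate 2 (−0.34, adjusted p = 0.036). After normexp and quantile normalization the difference was −0.11 (adjusted p = 0.47), and with the replicate number as a block its adjusted p was 0.063. In liver genotype and slide cannot be told apart, nor can they in muscle or fat at 35 weeks.

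Sirt1, Sirt4, Sirt6 and Sirt7 had unadjusted p under 0.05 for genotype in liver without passing after adjustment. Sirt1 at 8 weeks stood at 0.35, 0.60 and 0.55 in Wt and at 0.20, 0.04 and 0.00 in Akt1+/-. These arrays did not overlap, as for 14.2% of genes in this direction. The difference was −0.42 ± 0.12 (limma, adjusted p = 0.075), in a contrast where 2.16% of genes were called. Sirt4 at 8 weeks did not overlap either, with −0.41 ± 0.11 (adjusted p = 0.063). At 35 weeks these values were −0.10 and −0.08, with overlapping arrays. The differences over both ages were −0.26 for Sirt1 (adjusted p = 0.062), −0.25 for Sirt4 (adjusted p = 0.059) and −0.24 for Sirt7 (adjusted p = 0.095). The Sirt1 values are those of its brightest probe. Its second probe averaged −0.54 in Wt and −0.84 in Akt1+/- at 8 weeks, with overlapping arrays. At 35 weeks that probe ran the other way, with −1.09 in Wt and −0.93 in Akt1+/-.

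Sirt6 ran the other way in liver. It stood at −4.38, −5.13, −4.82 and −4.94 in Wt and at −3.71, −4.26, −4.50 and −3.94 in Akt1+/- at 35 weeks, where 3 of 4 and 4 of 4 arrays were well above background. The highest Wt array lay above 1 Akt1+/- array. The difference was 0.72 ± 0.20 (adjusted p = 0.073) at 35 weeks and 0.40 ± 0.15 over both ages (adjusted p = 0.12). In muscle Sirt6 was lower in all 4 Akt1+/- arrays of 35 weeks (−4.24, −4.11, −4.15 and −4.03) than in all 4 Wt arrays (−3.71, −3.93, −3.91 and −3.85), as for 1.72% of genes, and the difference over both ages was −0.31 ± 0.10 (adjusted p = 0.16). At 35 weeks alone 0.0934% of genes were called for genotype in muscle.

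The genotype effect on Sirt6 was 0.71 lower in muscle than in liver (log2 difference −0.71 ± 0.17, adjusted p = 0.039; 0.952% of genes were called). This call was lost in 16 of 42 fits that left out 1 array (adjusted p up to 0.093, the highest without muscle Akt1+/- 8 weeks replicate 3, the array with the high hepatocyte sum), in the normexp and quantile values (−0.16, adjusted p = 0.16) and with slide as a random block (adjusted p = 0.095). For fat against liver and fat against muscle, where 4.21% and 0.766% of genes were called, no sirtuin passed, and Sirt3 came next to Sirt6 with 0.46 ± 0.14 for muscle minus liver (adjusted p = 0.088).

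**Figure D4:**
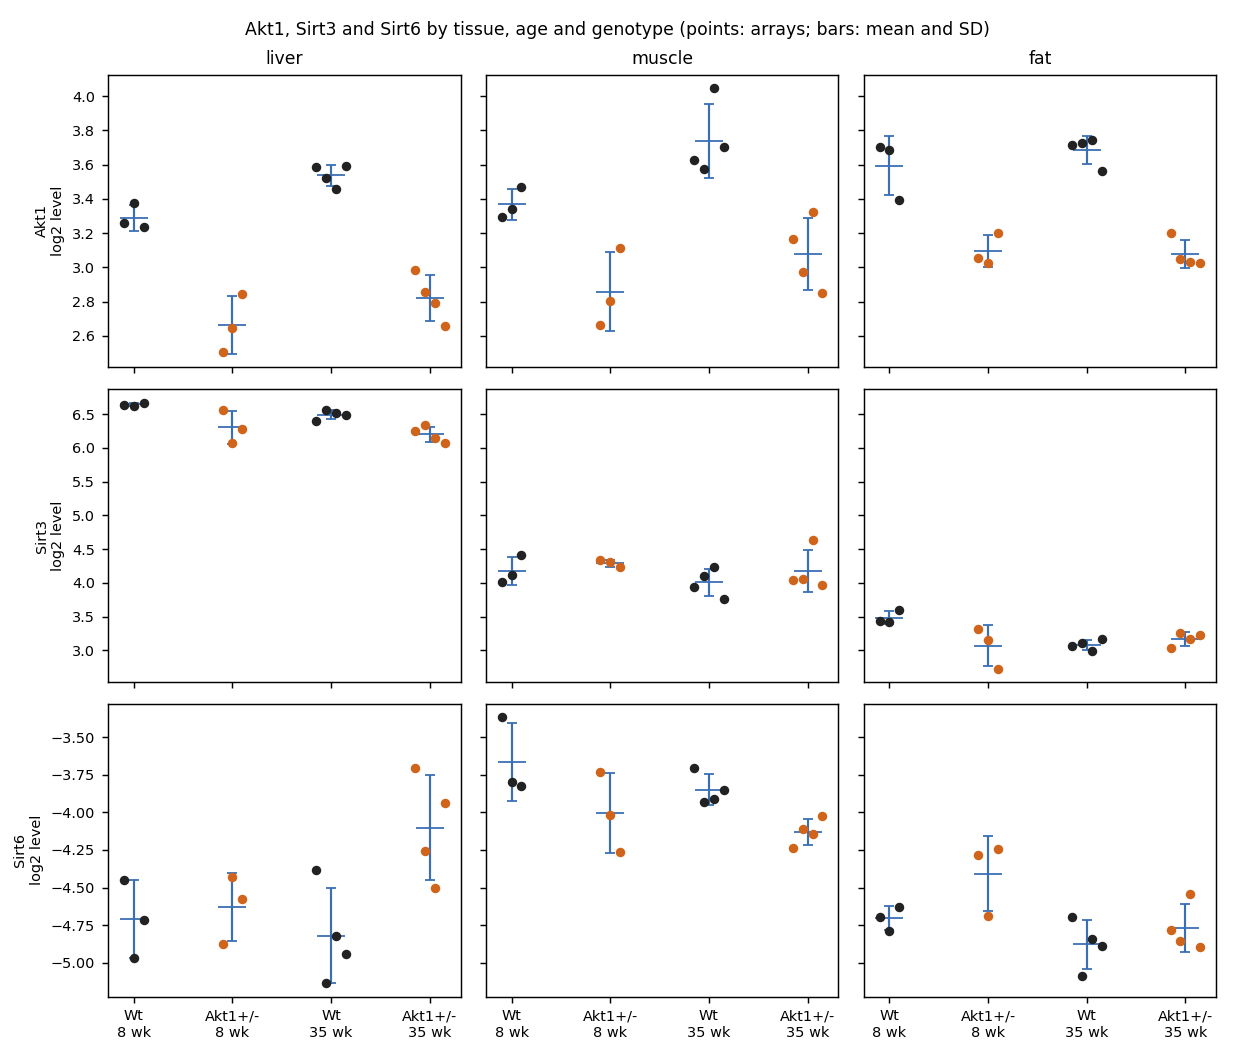
Log2 levels of Akt1, Sirt3 and Sirt6 in Wt and Akt1+/- arrays of each tissue and age, relative to the 75th percentile of each array; points are arrays and bars are group means with SD. Akt1 is lower in Akt1+/- everywhere, Sirt3 is lower in liver at both ages, and the Sirt6 arrays of muscle at 35 weeks separate by genotype, from −3.93 and above in Wt to −4.03 and below in Akt1+/-.

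In fat no sirtuin was called for genotype at either age. At 8 weeks Sirt2, Sirt3 and Sirt4 were lower in all 3 Akt1+/- arrays than in all 3 Wt arrays (15.3% of genes were). Sirt3 stood at 3.43, 3.43 and 3.60 in Wt and at 3.32, 3.15 and 2.73 in Akt1+/- (−0.42 ± 0.13, adjusted p = 0.096), and Sirt4 at 1.30, 1.23 and 1.34 against 1.07, 1.0 and 0.80 (−0.34 ± 0.10, adjusted p = 0.078). Sirt2 gave −0.18 (limma, adjusted p = 0.17) on its brightest probe. On the Sirt2 probe starting 37 bases away the genotypes overlapped, at 1.369 to 1.390 in Wt and 1.150 to 1.374 in Akt1+/-. The Sirt2 probe with coordinates of 1626 bases did not overlap and was also lower in Akt1+/-. At 8 weeks 1.8% of genes were called for genotype in fat, and at 35 weeks 1.7%.

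At 35 weeks the Wt and Akt1+/- arrays of fat lay on different slides and scan days, so that genotype and these cannot be told apart. On its brightest probe Sirt2 was higher there in all 4 Akt1+/- arrays than in all 4 Wt arrays, as for 4.3% of genes (0.11, limma, adjusted p = 0.56). The Sirt2 probe starting 37 bases away overlapped, at 1.42 to 1.58 in Wt and 1.54 to 1.64 in Akt1+/-, and the remaining Sirt2 probe did not. Sirt1 was lower in all 4 Akt1+/- arrays (0.35, 0.26, 0.28 and 0.37 against 0.66, 0.57, 0.49 and 0.38), as for 5.52% of genes. Its difference was −0.21 (limma, adjusted p = 0.57). Sirt2, Sirt3 and Sirt4 had interactions of genotype and age with an unadjusted p under 0.05, of 0.30, 0.51 and 0.41, and adjusted p of 0.14, 0.14 and 0.12. On the 1 slide that held both genotypes of fat at 8 weeks, the 3 Akt1+/- arrays were below the 1 Wt array by −0.53 for Sirt3, −0.39 for Sirt4 and −0.24 for Sirt2. At 35 weeks the adipocyte sums of fat did not overlap between genotypes, at 10.9 to 11 in Wt and 10.5 to 10.7 in Akt1+/-, and 1 of 6 adipocyte markers was called, Cfd (−0.54, adjusted p = 0.0069). Their part in the Sirt1 and Sirt2 values was not tested.

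Markers of leukocytes and adipocytes are given beside the liver genotype values, where 6.16% of all genes were called. Of 6 macrophage and leukocyte markers 1 was called, the T-cell gene Cd3e (0.47 higher in Akt1+/- liver, adjusted p = 0.029), and the macrophage marker Cd68 stood at −0.004 (adjusted p = 0.99). Of the 2 adipocyte markers tested in liver, Cidec was higher (2.00, adjusted p = 0.031) and Fabp4 gave 0.06 (adjusted p = 0.74), while Adipoq, Plin1 and Lep were not above background on any array of 8 weeks. The adipocyte sums ran from 3.39 to 3.70 in Wt and from 4.43 to 6.65 in Akt1+/- at 8 weeks, and from 3.52 to 5.30 and 4.38 to 6.23 at 35 weeks. At 8 weeks Cidec gave 2.83 (limma, adjusted p = 0.059) and Fabp4 −0.04 (adjusted p = 0.91). The higher sums thus followed Cidec and not the list as a whole. Their part in the Sirt3 difference was not tested.

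Genes around the sirtuins were read from 6 lists, whose counts are set beside the share of all genes called for age (35% in liver, 30.9% in muscle and 19.1% in fat) or genotype. The lists themselves were not tested. NAD, which sirtuins consume, is made from tryptophan and recycled from nicotinamide. Of 18 tested genes of NAD synthesis and salvage, 1 rose and 4 fell with age in liver, below the 35% of all genes. Ido1, which opens tryptophan breakdown, rose by 2.64 (adjusted p = 0.00018), and Nampt, the rate-limiting enzyme of nicotinamide salvage, fell by 0.78 (adjusted p = 0.0019). Afmid fell by 0.70. In muscle 4 of 15 rose and none fell, beside 30.9% of all genes in either direction, led by Nmrk2, a nicotinamide riboside kinase (2.45, adjusted p = 0.0091), and Nmnat1, which makes NAD from its mononucleotide (0.31, adjusted p = 0.0028). In fat 0 of 16 passed with limma, beside 19.1%, and the list's median was −0.20 beside 0.01 over all genes.

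Of 10 tested enzymes that use NAD or remove nicotinamide, 2 rose and 4 fell with age in muscle, beside 30.9% of all genes. Parp4 rose by 0.52 (adjusted p = 0.0025) and Aox1 by 0.34, whereas the NAD glycohydrolases Bst1 and Cd38 fell by 0.74 and 0.45. In liver Parp3 rose by 0.39 and Tnks2 fell by 0.21, of 10 tested, beside 35%. In fat Parp4 rose by 0.22 and Parp2 fell by 0.31, of 11, beside 19.1%. For genotype, Parp3 was higher in Akt1+/- liver (0.44, adjusted p = 0.029), the 1 of 10 genes called, beside 6.16% of all genes.

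Of the regulators of Sirt1, 1 of 9 rose in muscle (Csnk2b, a casein kinase 2 subunit, 0.18), beside 30.9% of all genes, 1 of 10 fell in fat (Setd7, −0.35), beside 19.1%, and 0 of 10 passed in liver, beside 35%. Of 16 nuclear and cytosolic substrates 1 was higher and 3 were lower with age in liver, below the 35% of all genes, and 0 passed in muscle or fat. Foxo4 rose by 1.38 (adjusted p = 0.0005), and Ep300 and Hif1a each fell by 0.37.

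Mitochondrial sirtuin substrates showed 1 of 15 higher and 3 lower with age in liver, beside 35% of all genes called, where Ppif rose by 0.25 and Sod2, a superoxide dismutase activated by Sirt3, fell by 0.30 (adjusted p = 0.0083), Acadvl and Aldh2 by 0.26 each. In muscle, where 30.9% of all genes were called, Idh2 rose by 0.43 (limma, adjusted p = 0.0066), and Aldh2 fell by 0.38. In fat Aldh2 fell by 0.47 (adjusted p = 0.0037), the 1 of 13, beside 19.1%. By genotype, where 6.16% of all genes were called in liver and 0.774% in fat, 1 of 15 was higher in Akt1+/- liver (Acadl, 0.35, adjusted p = 0.047) and 2 were lower, Sod2 by −0.34 (adjusted p = 0.028) and Ndufa9 by −0.32 (adjusted p = 0.0499), and Sdha was lower in Akt1+/- fat (−0.34, adjusted p = 0.047). The zinc-dependent histone deacetylases, which do not use NAD, fell in 3 of 11 with age in liver, where 14.7% of all genes were lower (Hdac2 by 0.82 and Hdac8 by 0.29 the most) and in 1 of 11 in fat (Hdac2 by 0.75; 19.1% of all genes were called in either direction), with 0 of 11 called in muscle.

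Over the 12 group means the 7 sirtuins fell into different patterns, as a description. Sirt7 was most like Tpmt (Pearson r = 0.998), Rdh11 and Fmo5, Sirt3 most like Olfr726 (0.997), Abcd3 and Ei24, Sirt2 most like Msi2 (0.996), Golga4 and Fhod3, and Sirt5 most like Slc25a33, Fn3k (0.991 each) and Uqcrq. The most alike genes for Sirt1 were Nemf (0.936), Pard6a and Zfp553, for Sirt4 Fkbp5 (0.941), Ints8 and Clk3, and for Sirt6 AK081687 (0.949), Olfr1131 and Fa2h. These are chosen from 19855 genes and share tissue, arrays and scaling. Sirt2 and Sirt7 ran most opposite among the sirtuins (r = −0.84).

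Once each tissue's mean was removed, Sirt3 and Sirt4 moved together most (r = 0.77 over 12 deviations), with Sirt2 and Sirt1 next (0.62), while Sirt6 ran against Sirt7 (−0.63). The same arrays and the same array scaling enter both members of each pair.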

How the data were processed

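Total RNA from 42 samples was hybridised singly to Agilent whole mouse 44K arrays (Cy3, 1 colour). The authors scanned and extracted them with Agilent Feature Extraction (9.1 in the submitters' notes, 9.5.3.1 per the file headers), which gives background-subtracted intensity values per spot, and deposited in addition a table of log2 values. That table correlated at r = 1 with log2 intensity on every array, and its 75th percentiles lay near 0 (−0.001 to 0.003). It was thus nearly the same as the values used here, and its centring is otherwise not stated. No column of another series was present (0).

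Here, log2 of the processed intensity minus the 75th percentile of each array was used, control spots and outlier spots were left out, and spots of 1 probe were averaged. Probes had to be well above background on 3 or more arrays of some group, and the brightest probe stood for a gene. Genotype, age and their interaction were tested in each tissue, and tissue differences over all 42 arrays, with limma 3.58.1 in R 4.3.3 on all genes, at a Benjamini-Hochberg adjusted p under 0.05. Scripts were tested on simulated data. Whether 2 probes of the same gene changed alike with age was tested by exact permutation of the age labels. Python 3.11.15, pandas 2.3.3, numpy 2.4.6 and matplotlib 3.10.9 made the tables and plots.

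Named genes were all 7 sirtuins, Akt1, the 3 genes most like each sirtuin, and of each pathway list the 2 called members with the largest change in each direction. Members, lists and tests were chosen with earlier results of these data known. Lists covered NAD synthesis and salvage, NAD and nicotinamide consumers, Sirt1 regulators, nuclear and cytosolic substrates, mitochondrial substrates and zinc-dependent histone deacetylases, and cell types. Of 8 oocyte and ovary markers 3 passed the filter in muscle, 2 in fat and 1 in liver. Alternatives were another background correction and normalization, scaling, filters, probe rules, the deposited log2 values, slide, scan day and replicate number as blocks, the two-way test of the methods, and leaving out each array. Probe positions are those of the array design (mm8), and promoter sequences are from RefSeq (GRCm38.p6). Probe sequences and proteins were not used here. A two-way ANOVA at an unadjusted p under 0.01 was the test named by the study. The result of a single gene of the mitochondrial substrate list is not reported here.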

Additional observations from a re-analysis of the deposited data

Results flagged for a closer look

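Within groups of 4 arrays, 1 array stood apart for 2 of 42 combinations of sirtuin, tissue and genotype at 35 weeks, where chance gives about 1 in 20. Sirt1 in Wt muscle was lower on replicate 2 (0.86 against 1.09 to 1.12), a gap of 0.872 of the range, past Dixon's critical value. Sirt3 in Akt1+/- muscle was higher on replicate 3 (4.63 against 3.97 to 4.06), a gap of 0.866 of the range.

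Effects that differed between tissues by the test of the difference itself were the following. The age effect on Sirt1 was 0.35 higher in muscle than in liver and differed by −0.36 between fat and muscle. The age effect on Sirt5 was 0.62 higher in muscle than in liver, and that on Sirt4 was 0.37 higher in fat than in liver. The genotype effect on Sirt6 differed by −0.71 between muscle and liver.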

How the results depend on the processing

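Sirt1 in muscle and Sirt4 in liver and muscle stayed called for age in all 11 alternatives and in all 14 fits without 1 array, between 0.39 and 0.49, −0.58 and −0.31, and −0.26 and −0.18. Not all 11 alternatives were different data. The deposited log2 values were nearly those used here, and the probe rules left the values of Sirt4, with its 1 probe, unchanged. Sirt3 for genotype in liver was called in 7 of 11 alternatives. With the median as scale, which moved the median of all genes by −0.11 for genotype and −0.18 for age in liver and by −0.22 for fat minus liver, 4 sirtuins were called for age and 4 for genotype in liver, 7 for fat against liver and 3 for a difference of the genotype effect between tissues. With normexp and quantile normalization 2 were called for age in liver, 1 for age in fat and 0 for a difference of the genotype effect between tissues. Without a filter on dim probes 0 were called for genotype in liver and 0 for that difference, and 0 when every array had to be well above background. One fit over 42 arrays gave 5 for genotype in liver and 1 for the interaction in fat, and the deposited log2 values gave 1 for age in fat.

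With slide as a random block 0 sirtuins were called for genotype in liver, 2 for age in fat, 1 for a difference of the age effect and 0 for a difference of the genotype effect between tissues; with scan day, added after seeing the data, 1 for a difference of the age effect. The methods' two-way test gave, after Benjamini-Hochberg adjustment, 2 for genotype in liver, 1 for age in fat and 1 for the interaction in fat, and at its unadjusted threshold 4 for genotype in liver, 1 for genotype in muscle, 1 for age in fat, 1 for the interaction in muscle and 2 for the interaction in fat. Sirt2 (0.23) and Sirt4 (0.10) reversed for fat minus liver after normexp and quantile normalization.

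With the replicate number as a block, 0 sirtuins were called for genotype in liver (Sirt3 −0.32, adjusted p = 0.063), 1 for age in fat, and 3 for age in muscle. The labels do not say that a number marks a shared animal or batch. At 35 weeks the number was also the position on the slide on 24 of 24 arrays, against 4 of 18 at 8 weeks. Deviations of same-numbered arrays correlated at 0.105 to 0.526 over 12 pairs of genotypes at 35 weeks but at −0.194 to 0.072 over 9 pairs at 8 weeks, and 25 of 42 arrays correlated best with their own number, among them 8 of 8 in liver and 8 of 8 in muscle at 35 weeks.

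Leaving out 1 array gave 1 to 2 sirtuins for age in liver, 2 to 3 in muscle and 0 to 1 in fat, 0 to 2 for genotype in liver, 4 to 5 for fat against liver, 3 to 4 for a difference of the age effect and 0 to 2 for a difference of the genotype effect between tissues. The cause of these changes was not tested. Sirt6 in liver, well above background on 10 of 14 arrays, is limited by its signal.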
